A study of Mus musculus with 4 samples.

Results

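The SLC25 family is described here in hematopoietic stem cells (HSCs) that kept or had lost *Id2*. Its members were taken by symbol, as every gene of the expression matrix named *Slc25a* followed by a number, which gave 43 of 19354 genes. The 4 RNA-Seq libraries were made from HSCs sorted as LSK FLT3- CD48- CD150+ cells from the bone marrow of mice aged 8 to 16 weeks. All mice carried *Mx1-Cre*, an interferon-inducible Cre transgene that is active in many cell types, and all had received pIpC 2 weeks earlier, so the controls shared the transgene and the interferon stimulus. The control libraries came from 14 pooled *Mx1-Cre Id2+/+* mice and the *Id2*Δ/Δ libraries from 15 pooled *Mx1-Cre Id2 fl/fl* mice, in which the floxed gene is excised, over 2 experiments, with 2 libraries for each genotype. The experiment behind each library is not labelled, so the p-values measure only the spread between these libraries, which may be technical.

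SLC25 proteins form the largest family of transporters of the inner mitochondrial membrane, which is otherwise closed to most charged metabolites. They exchange ADP for ATP, bring in phosphate, and move carboxylic acids, amino acids, cofactors, nucleotides, iron and glutathione between the cytosol and the matrix. They are encoded in the nucleus, made in the cytosol and inserted into the membrane by the TIM22 complex. HSCs are known for low mitochondrial respiration while they are quiescent, and the study asked how loss of *Id2* alters the HSC transcriptome, including genes of oxidative metabolism.

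The values are log2 counts-per-million (CPM), normalized between libraries by the authors. The estimated depth was 14200000 and 15700000 reads for *Id2+/+* and 17800000 and 18800000 reads for *Id2*Δ/Δ HSCs. Below 32 CPM whole reads were recovered from the values. *Id2* itself had 93 and 98 reads in *Id2+/+* replicates 1 and 2 and 0 reads in either *Id2*Δ/Δ library, where a count of 0 allows up to 3 reads, or 0.169 and 0.159 CPM by counting error alone. The 10 HSC markers, among them *Kit*, *Procr* and *Mecom*, were all above the level of 3 reads in every library. Their summed level was 4593 and 4486 CPM in *Id2+/+* and 3146 and 3719 CPM in *Id2*Δ/Δ libraries, while the 7 megakaryocyte markers summed to 513 and 570 against 582 and 665 CPM. The 12 neutrophil markers summed to 286 and 172 CPM in *Id2+/+* replicates 1 and 2 and to 264 and 143 CPM in *Id2*Δ/Δ replicates 1 and 2. They overlapped between genotypes, and replicate 1 was the higher in both. The markers of monocytes and macrophages (9 of 10 with a row, 213 to 227 CPM in *Id2+/+*, 205 to 270 in *Id2*Δ/Δ) also overlapped. So did those of erythroid cells (10 of 12, 57 to 66.6 and 52.6 to 76.7 CPM). *Flt3* and *Cd48*, which the sort excludes, summed to 57.7 and 53 CPM in *Id2+/+* and 52.3 and 48.3 CPM in *Id2*Δ/Δ libraries. These sums did not overlap, although each of the genes alone did. B-cell markers (3 of 6) summed to 36.8 to 40.8 and 37.7 to 54 CPM, and T-cell markers (2 of 6) to 22.7 to 26.2 and 23.5 to 26.1 CPM. No marker with a row was at or under 3 reads in every library. The HSC sum was carried mainly by *Kit*, at 11.08 and 10.93 against 10.19 and 10.55 log2 CPM. Of the 10 HSC markers 5 were lower in *Id2*Δ/Δ HSCs without overlap, where 15.8% of all genes tested were. *Slamf1* was higher without overlap (difference 0.26) and 4 overlapped. Of the 7 megakaryocyte markers 4 were higher without overlap, where 19% of all genes tested were. *Ppbp* was lower (difference -0.39) and 2 overlapped. Depth and the sums of the HSC, megakaryocyte and sort-excluded markers thus differed between genotypes beside all comparisons that follow. Their part in those was not tested.

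The ADP/ATP carriers show how closely family members can resemble each other. *Slc25a5* (ENSMUSG00000016319.3), which encodes the ADP/ATP carrier ANT2, and *Slc25a4* (ENSMUSG00000031633.4), which encodes ANT1, have coding sequences of 894 bases each that were identical at 77.4% of positions, with a longest identical run of 20 bases. The 60 bases from position 56 to 115 of the coding sequence (GENCODE M21, sense strand, 5′ to 3′) are printed because reads from this stretch separate the paralogs but not *Slc25a5* from the pseudogene *Gm5560*. Capitals in *Slc25a4* mark the 8 bases that differ from *Slc25a5*.
Slc25a5: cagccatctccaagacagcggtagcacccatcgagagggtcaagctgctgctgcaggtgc
Slc25a4: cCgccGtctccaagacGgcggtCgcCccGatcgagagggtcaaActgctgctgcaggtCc
Gm5560: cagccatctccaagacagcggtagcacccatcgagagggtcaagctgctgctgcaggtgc
All 50-base stretches of each member's transcript were compared with the transcripts of other genes, on both strands. *Slc25a4* shared none of them, whereas 46.6% of those of *Slc25a5* also occurred in transcripts of 9 other genes, 29.1% in *Gm5560* alone. How the authors' counting divided such reads is not known. Rows were looked up for the first 8 of these 9 genes by shared stretches, and 5 pseudogenes had a row (*Gm5560*, *Gm5529*, *Gm5256*, *Gm6425* and *Gm7560*). They summed to 6.86 and 6.92 CPM in *Id2+/+* and 8.55 and 10.2 CPM in *Id2*Δ/Δ libraries, which is between 0.997% and 1.43% of *Slc25a5*. The last of the 9 was not looked up. Of the 43 members, 26 shared no 50-base stretch with another gene and 8 shared less than 5%. The other 9 are uncertain to a greater degree, and besides *Slc25a5* these were *Slc25a33* (12.6%), *Slc25a36* (11.8%), *Slc25a40* (10.3%), *Slc25a25* (9.46%), *Slc25a10* (9.07%), *Slc25a37* (8.07%), *Slc25a46* (7.52%) and *Slc25a26* (5.07%).

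The family spanned a wide range of levels in HSCs and was dominated by the carriers that serve ATP synthesis. Per kilobase of transcript, *Slc25a5* was the most abundant member, at a mean of 9.17 log2 CPM per kb over the 4 libraries, followed by *Slc25a3* (ENSMUSG00000061904.12), the mitochondrial phosphate carrier, at 8.12, *Slc25a4* at 7.01 and *Slc25a11* (ENSMUSG00000014606.14), the oxoglutarate/malate carrier of the malate-aspartate shuttle, at 6.70. The order of these 4 members was the same in every library. *Slc25a3* was counted at 1612 bases, but its longest transcript has 4039, so its rank and shares per kb depend on the transcript chosen. *Slc25a5* held 33.4% and 33% of the family's summed level per kb in *Id2+/+* and 33.6% and 33% in *Id2*Δ/Δ libraries, and together with *Slc25a3* and *Slc25a4* it held 55.7% and 57.4% against 57.9% and 56.2%. The share of the 3 carriers therefore overlapped between genotypes. Next came *Slc25a39*, which is required for mitochondrial glutathione import (6.25 log2 CPM per kb), the citrate carrier *Slc25a1* (6.10) and *Slc25a17*, a carrier of the peroxisomal membrane (5.58). At the low end, 4 members had a mean below 1 CPM and were not tested. *Slc25a34* had 10 and 9 reads in *Id2+/+* and 14 and 15 in *Id2*Δ/Δ libraries. The ATP-Mg/phosphate carrier *Slc25a41* had 5 and 19 against 27 and 5 reads. The glutamate carrier *Slc25a18* had 12 and 18 against 4 and 9 reads, and the ornithine carrier *Slc25a2* had 9 and 8 against 13 and 1. The groups did not overlap for *Slc25a34* and *Slc25a18*, in opposite directions, and overlapped for the other two. Every member was above 3 reads in at least 3 libraries. *Slc25a21*, *Slc25a31*, *Slc25a48*, *Slc25a52* and *Slc25a54* had no row and were not analysed here.

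**Figure D1:**
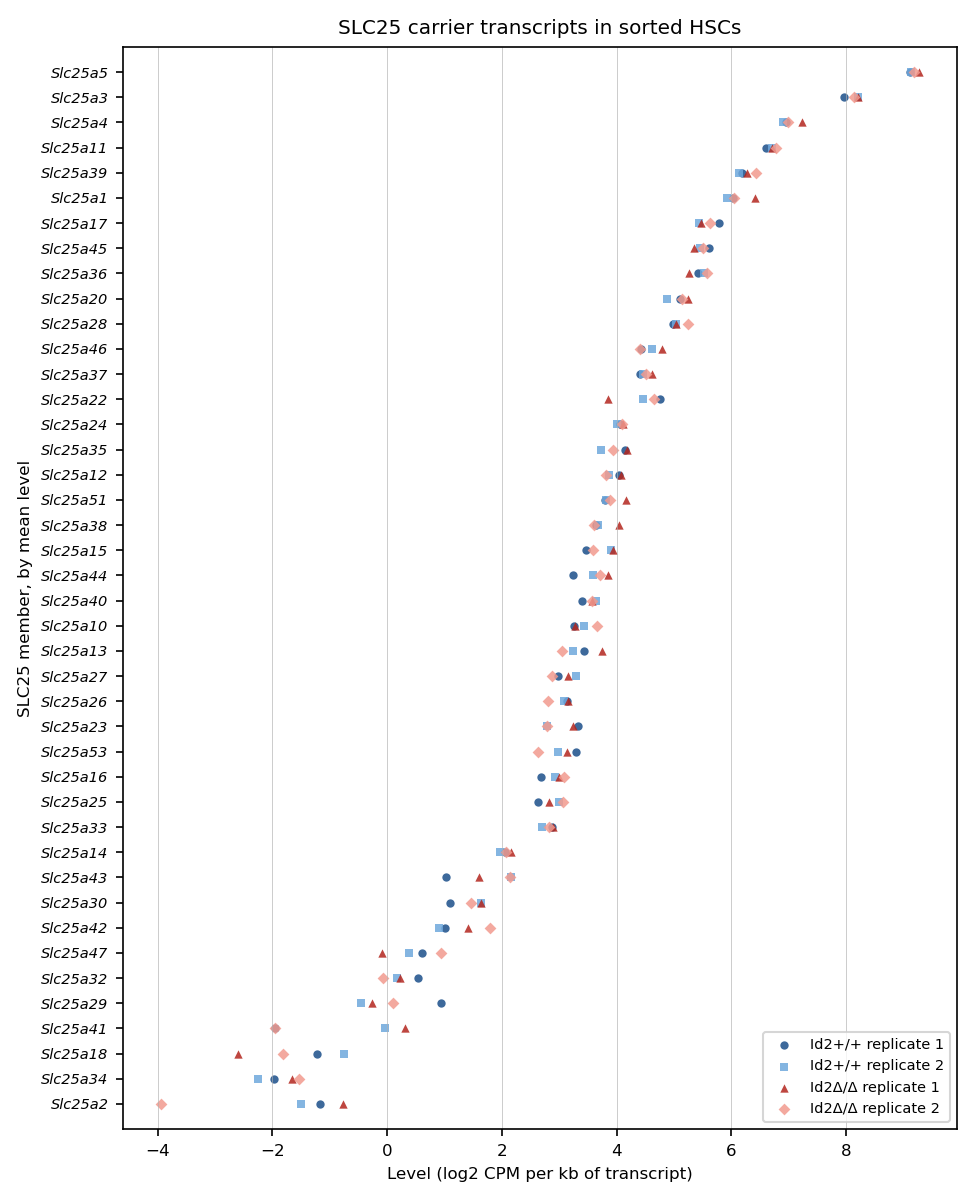
Level of 42 of the 43 SLC25 members in each library, as log2 CPM per kb of transcript on the horizontal axis, with members ordered by their mean. Blue symbols are the 2 *Id2+/+* and red symbols the 2 *Id2*Δ/Δ libraries. *Slc25a5* leads at a mean of 9.17, with its libraries within 0.16 of each other. The libraries tend to spread wider at low levels, as for *Slc25a2* (3.17) and *Slc25a29* (1.40). The more abundant *Slc25a22* (0.91) nevertheless spread wider than *Slc25a34* (0.72).

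Between genotypes, SLC25 transcripts differed little, and no member passed the test. Of the 39 tested members 0 passed an adjusted p of 0.05 in limma with Benjamini-Hochberg adjustment, and 0 of all 15895 genes tested did (0%), where the smallest adjusted p was 0.910. At an unadjusted p under 0.05 there were 742 genes (4.67%) and 0 members, and the smallest p of a member was 0.0685, for *Slc25a42*. The differences, *Id2*Δ/Δ minus *Id2+/+*, ran from -0.36 to 0.65 on the log2 scale with a median of 0.09, beside 0.01 for all genes tested. They were above 0 in 27 of 39 members, against 51.7% of all genes tested. The *Id2*Δ/Δ values were each higher than either *Id2+/+* value in 14 members (35.9%), against 19% of all genes tested, and each lower in 0 members, against 15.8%. In the other 25 members the genotypes overlapped. A member's p-value above the threshold does not show that its level was equal, and the 95% intervals are given for the members named. With 2 libraries against 2, the smallest two-sided p of an exact permutation test is 0.333. Fewer cells of a type and less RNA per cell cannot be told apart in these bulk libraries.

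**Figure D2:**
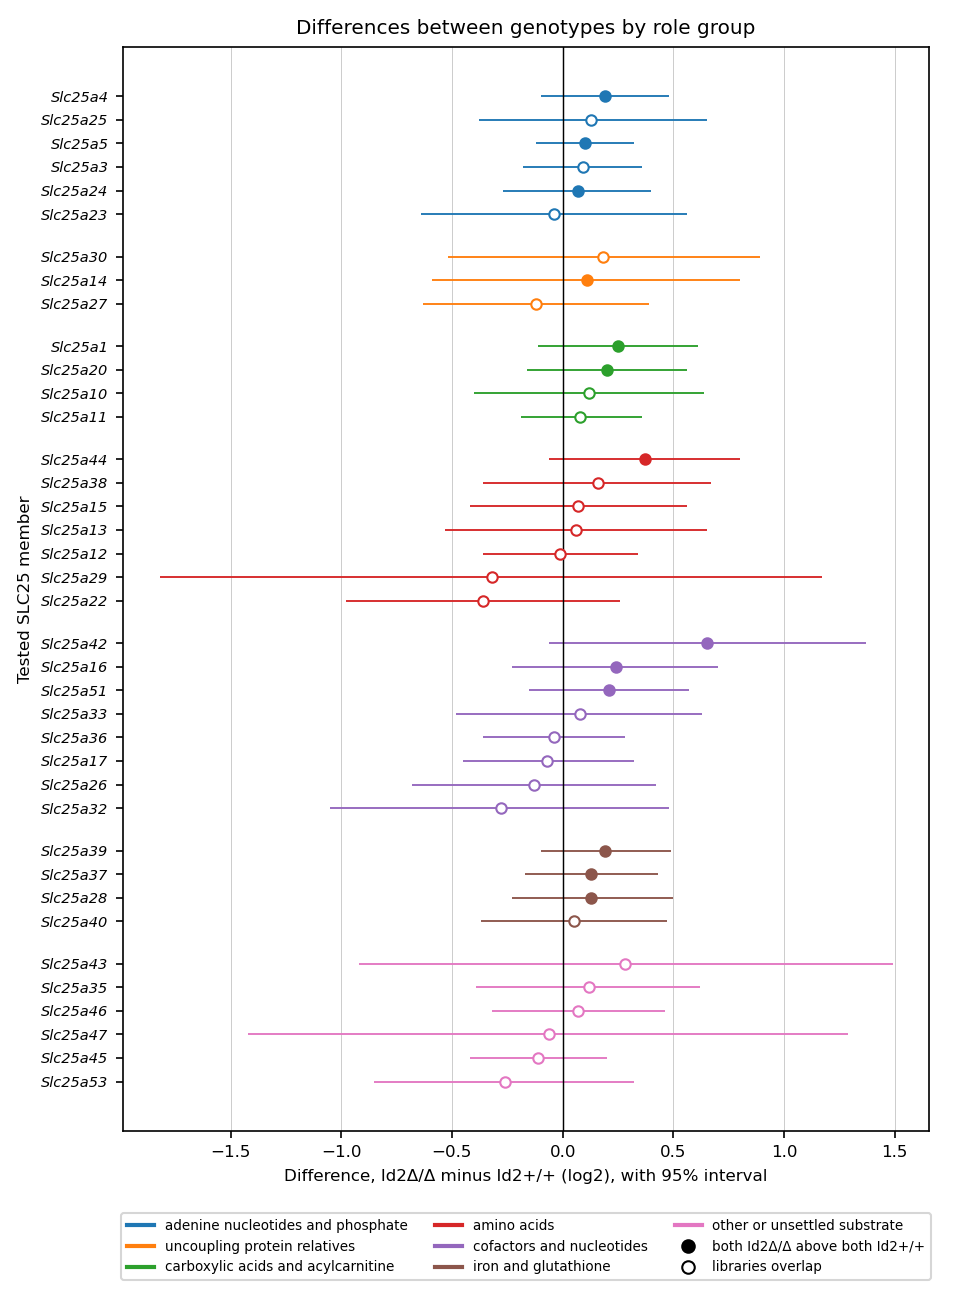
Log2 difference, *Id2*Δ/Δ minus *Id2+/+*, of 38 of the 39 tested SLC25 members, coloured by role group, with the 95% interval from limma (2 libraries per genotype). Filled points, 13 in all, are members with each *Id2*Δ/Δ value higher than either *Id2+/+* value, and every interval drawn includes 0.

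For most single members, the difference between genotypes was smaller than a difference between replicates. Its median size was 0.12 over the 39 members, while the median size of the difference between replicates was 0.19 in *Id2+/+* and 0.25 in *Id2*Δ/Δ HSCs, where all genes tested gave 0.18, 0.19 and 0.29. With their sign kept, the differences of replicate 2 minus replicate 1 had medians of -0.04 in *Id2+/+* and -0.08 in *Id2*Δ/Δ HSCs. The median between genotypes was 0.09, so the *Id2*Δ/Δ replicates were apart by a median of similar size. Replicate 2 was above replicate 1 in 18 of the 39 members in *Id2+/+* and in 15 in *Id2*Δ/Δ HSCs. In 31 members at least 1 replicate pair differed by more than the genotypes did. A difference between single libraries varies more than a difference between means of 2 libraries, so that count does not measure a lack of effect. The difference between genotypes exceeded its own standard error in 12 members, of which 10 were higher in *Id2*Δ/Δ HSCs. Neither count was set beside all genes, so neither sets the members apart. The members' median deviation from the mean of the 4 libraries was -0.07 and -0.04 in *Id2+/+* and 0.09 and 0.02 in *Id2*Δ/Δ libraries, so *Id2*Δ/Δ replicate 1 stood farthest above and *Id2*Δ/Δ replicate 2 near the mean. Without *Id2*Δ/Δ replicate 1 the median difference was 0.05, and without *Id2*Δ/Δ replicate 2 it was 0.12. Of the 22 members with a mean of at least 32 CPM, 17 were higher and 11 lay above without overlap, where among all 7332 genes of that level the shares were 52.1% and 18.5%. Of the 17 members under 32 CPM, 10 were higher and 3 lay above (17.6%), where among all genes tested under that level the shares were 51.4% and 19.3%. The summed level of the family was 3203 and 3255 CPM in *Id2+/+* and 3499 and 3354 CPM in *Id2*Δ/Δ libraries. That is 3229 ± 36.8 against 3427 ± 103 CPM (SD, n = 2), higher by 6.11%, and the libraries of the genotypes did not overlap.

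**Figure D3:**
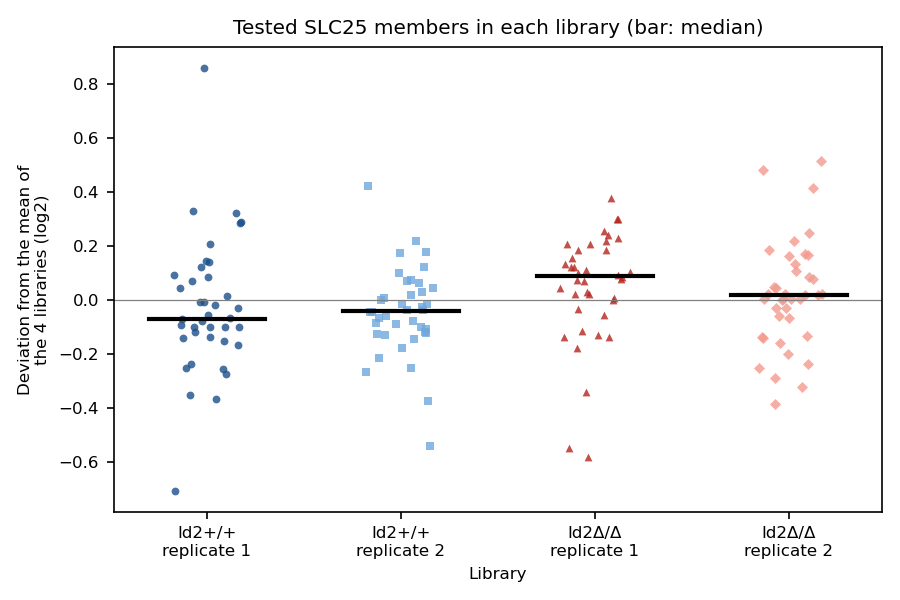
Deviation of each of the 39 tested SLC25 members from its mean over the 4 libraries, in log2 units, by library. Each point is a member and each black bar the median, at -0.07 and -0.04 for *Id2+/+* and 0.09 and 0.02 for *Id2*Δ/Δ, and the points of all libraries spread on both sides of 0.

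Among the carriers of adenine nucleotides and phosphate, 5 of 6 tested members were higher in *Id2*Δ/Δ HSCs, 3 of them without overlap, with a median of 0.10. Beside this and each later role group, 51.7% of all genes tested were higher, and 19% were higher without overlap. *Slc25a5*, whose product exchanges matrix ATP for cytosolic ADP, was at 9.43 and 9.44 log2 CPM in *Id2+/+* and 9.58 and 9.49 in *Id2*Δ/Δ libraries. The *Id2*Δ/Δ libraries were both the higher, by a margin of the order of the spread between them. The difference was 0.10 (standard error 0.09, 95% interval -0.12 to 0.32, adjusted p = 0.912 in limma), and it was 0.05 after correction for transcript length. It was also 0.05 without *Id2*Δ/Δ replicate 1, and 0.15 without *Id2*Δ/Δ replicate 2. *Slc25a3*, which supplies the phosphate for ATP synthesis, was at 8.65 and 8.89 against 8.90 and 8.82 log2 CPM. Its genotypes overlapped because *Id2+/+* replicate 2 lay above *Id2*Δ/Δ replicate 2, while *Id2+/+* replicate 1 was the lowest. The difference was 0.09 (standard error 0.12, 95% interval -0.18 to 0.36, adjusted p = 0.930 in limma). It was -0.03 without *Id2+/+* replicate 1 and 0.21 without *Id2+/+* replicate 2. *Slc25a4* was at 7.89 and 7.84 against 8.18 and 7.93 log2 CPM, with *Id2*Δ/Δ replicate 1 the highest, and differed by 0.19 (95% interval -0.10 to 0.48). Without that library the difference was 0.07, and without *Id2*Δ/Δ replicate 2 it was 0.31. The calcium-regulated ATP-Mg/phosphate carriers *Slc25a24*, *Slc25a25* and *Slc25a23*, which adjust the adenine nucleotide pool of the matrix, differed by 0.07, 0.13 and -0.04. *Slc25a24* was the steadiest tested member, with 0.11 log2 between its highest and lowest library.

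The relatives of the uncoupling proteins lay in the lower part of the family, with *Slc25a27*, *Slc25a14* and *Slc25a30* at ranks 26, 33 and 35 of 43 members per kb. *Slc25a27* (ENSMUSG00000023912.9), also known as UCP4, had 320 and 444 reads in *Id2+/+* and 454 and 399 in *Id2*Δ/Δ libraries, which is 4.51 and 4.83 against 4.69 and 4.41 log2 CPM. The groups overlapped, and the difference was -0.12 (standard error 0.22, 95% interval -0.63 to 0.39, adjusted p = 0.944 in limma). *Slc25a30* (ENSMUSG00000022003.6) was at 2.93 and 3.47 against 3.48 and 3.30 log2 CPM, from 111 to 195 reads, with *Id2+/+* replicate 1 apart from the rest. Its difference of 0.18 (95% interval -0.52 to 0.89) was -0.09 without that library. *Slc25a14*, or UCP5, differed by 0.11 without overlap.

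All 4 tested carriers of carboxylic acids and acylcarnitine were higher in *Id2*Δ/Δ HSCs, 2 of them without overlap, with a median of 0.16 and a range of 0.08 to 0.25. The citrate carrier *Slc25a1* (ENSMUSG00000003528.14), which exports citrate for the synthesis of fatty acids and sterols, was at 6.77 and 6.66 log2 CPM in *Id2+/+* and 7.14 and 6.78 in *Id2*Δ/Δ libraries. *Id2*Δ/Δ replicate 1 stood well above the others, and *Id2*Δ/Δ replicate 2 was level with the higher control. The difference was 0.25 (standard error 0.15, 95% interval -0.11 to 0.61, adjusted p = 0.910 in limma), 0.07 without *Id2*Δ/Δ replicate 1 and 0.42 without *Id2*Δ/Δ replicate 2. *Slc25a11* was at 7.37 and 7.48 against 7.48 and 7.55 log2 CPM and differed by 0.08 (95% interval -0.19 to 0.36), from 0.03 without *Id2+/+* replicate 1 to 0.14 without *Id2+/+* replicate 2. Its 4 values lay within 0.18 of each other. *Slc25a20*, which brings acylcarnitines into the matrix for fatty acid oxidation, was at 5.94 and 5.71 against 6.08 and 5.97 log2 CPM, without overlap, and differed by 0.20 (95% interval -0.16 to 0.56). Its difference was 0.32 without *Id2+/+* replicate 1 and 0.09 without *Id2+/+* replicate 2. The dicarboxylate carrier *Slc25a10* differed by 0.12.

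The amino acid carriers were mixed, with 4 of 7 tested members higher, 1 without overlap, and a median of 0.06. *Slc25a44* (ENSMUSG00000050144.13), the carrier of branched-chain amino acids, was at 5.05 and 5.39 log2 CPM in *Id2+/+* and 5.66 and 5.51 in *Id2*Δ/Δ libraries. The *Id2*Δ/Δ libraries were both the higher, although the controls differed from each other by 0.34. The difference was 0.37 (standard error 0.18, 95% interval -0.06 to 0.80, adjusted p = 0.910 in limma), and it stayed between 0.20 and 0.54 with any library left out. *Slc25a12* (ENSMUSG00000027010.16), the aspartate/glutamate carrier aralar, was at 6.71 and 6.53 against 6.74 and 6.48 log2 CPM. Both genotypes covered the same range, and the difference was -0.01 (standard error 0.15, 95% interval -0.36 to 0.34), or 0.08 after correction for transcript length. The glutamate carrier *Slc25a22* (ENSMUSG00000019082.18) had the most negative difference of the tested members, with 6.25 and 5.95 against 5.34 and 6.14 log2 CPM. Only *Id2*Δ/Δ replicate 1 was low, and the difference of -0.36 (standard error 0.26, 95% interval -0.98 to 0.26, adjusted p = 0.910 in limma) was 0.04 without it. *Slc25a38*, the glycine carrier of heme synthesis, the ornithine carrier *Slc25a15* and *Slc25a13*, the second aspartate/glutamate carrier, differed by 0.16, 0.07 and 0.06. *Slc25a29*, a carrier of basic amino acids, had 56 and 23 against 29 and 36 reads and the widest spread of the tested members, 1.40 log2 between libraries, so its difference of -0.32 was 0.38 without *Id2+/+* replicate 1.

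The carriers of cofactors and nucleotides held the member with the greatest difference. In this group 5 of 9 were higher, 4 of them without overlap, with a median of 0.08. *Slc25a42* (ENSMUSG00000002346.16), the mitochondrial coenzyme A carrier, had 93 and 95 reads in *Id2+/+* and 149 and 202 reads in *Id2*Δ/Δ libraries, or 2.68 and 2.58 against 3.09 and 3.47 log2 CPM. The controls were nearly level, and the *Id2*Δ/Δ values were well above them. The difference was 0.65, or 57.1% (standard error 0.31, 95% interval -0.06 to 1.37, adjusted p = 0.910 in limma), and it ranged from 0.46 to 0.84 with any library left out. Of its 50-base stretches 3.37% also occur in transcripts of 627 other genes. *Slc25a16* (ENSMUSG00000071253.8), which is linked to mitochondrial coenzyme A, had 285 and 372 against 442 and 507 reads, or 4.34 and 4.58 against 4.65 and 4.74 log2 CPM. Its groups did not overlap but came within 0.07 of each other, and it differed by 0.24 (95% interval -0.23 to 0.70), or by 0.11 without *Id2+/+* replicate 1 and 0.36 without *Id2+/+* replicate 2. *Slc25a51* (ENSMUSG00000045973.18), the NAD carrier, was at 5.95 and 5.97 against 6.31 and 6.04 log2 CPM and differed by 0.21 (95% interval -0.15 to 0.57), or 0.08 without *Id2*Δ/Δ replicate 1, the library that stood highest, and 0.35 without *Id2*Δ/Δ replicate 2. The most abundant members of the group gave no such separation. *Slc25a36* (ENSMUSG00000032449.13), a pyrimidine nucleotide carrier, was at 7.80 and 7.90 against 7.65 and 7.96 log2 CPM (difference -0.04, 95% interval -0.36 to 0.28), with both extremes in the *Id2*Δ/Δ libraries. *Slc25a17* (ENSMUSG00000022404.7), which carries coenzyme A and other cofactors into peroxisomes, was at 6.57 and 6.22 against 6.25 and 6.41 log2 CPM, and its difference of -0.07 (95% interval -0.45 to 0.32) lay within the spread of the controls. The pyrimidine nucleotide carrier *Slc25a33*, the S-adenosylmethionine carrier *Slc25a26* and the folate/FAD carrier *Slc25a32* differed by 0.08, -0.13 and -0.28.

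All 4 members that handle iron or glutathione were higher in *Id2*Δ/Δ HSCs, 3 of them without overlap, with a median of 0.13 and a range of 0.05 to 0.19. Among all genes tested 51.7% were higher, and 19% were higher without overlap. After correction for transcript length 2 of the 4 were free of overlap, where 20.4% of all genes tested were higher without overlap. *Slc25a39* (ENSMUSG00000018677.9) was at 6.93 and 6.89 log2 CPM in *Id2+/+* and 7.03 and 7.18 in *Id2*Δ/Δ libraries. The groups were separate, with *Id2*Δ/Δ replicate 2 the highest. The difference was 0.19 (standard error 0.12, 95% interval -0.10 to 0.49, adjusted p = 0.910 in limma) and stayed between 0.12 and 0.27 with any library left out. *Slc25a37* (ENSMUSG00000034248.7), or mitoferrin 1, which imports iron and is known from erythroid cells, was at 6.46 and 6.52 against 6.67 and 6.58 log2 CPM. Its difference of 0.13 (95% interval -0.17 to 0.43) was small but free of overlap. A part of erythroid cells in this difference was not tested. *Slc25a28*, or mitoferrin 2, differed by 0.13 without overlap, 0.03 without *Id2*Δ/Δ replicate 2 and 0.23 without *Id2*Δ/Δ replicate 1, and *Slc25a40*, the relative of *Slc25a39*, by 0.05. Among members with another or an unsettled substrate, 3 of 6 were higher and 0 were free of overlap. *Slc25a45* (ENSMUSG00000024818.14) was at 6.91 and 6.77 against 6.65 and 6.81 log2 CPM, and differed by -0.11 (95% interval -0.42 to 0.20), or -0.02 without *Id2*Δ/Δ replicate 1 and -0.19 without *Id2*Δ/Δ replicate 2. *Slc25a46* (ENSMUSG00000024259.8), an outer membrane protein of mitochondrial dynamics, was at 6.55 and 6.75 against 6.92 and 6.53 log2 CPM, with the highest and the lowest library both *Id2*Δ/Δ, and differed by 0.07 (95% interval -0.32 to 0.46). *Slc25a43*, *Slc25a35*, *Slc25a47* and *Slc25a53* differed by 0.28, 0.12, -0.06 and -0.26, and the value for *Slc25a43*, with 33 and 79 against 60 and 86 reads, was -0.28 without *Id2+/+* replicate 1. That of *Slc25a53*, with 356 and 314 against 398 and 294 reads, was -0.52 without *Id2*Δ/Δ replicate 1 and -0.01 without *Id2*Δ/Δ replicate 2.

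Carriers with related substrates were set against each other per kilobase, as log2 ratios within each library, which a change common to both leaves unaltered. The ratio of *Slc25a5* to *Slc25a4* was 2.17 and 2.23 in *Id2+/+* and 2.04 and 2.19 in *Id2*Δ/Δ libraries, so ANT2 transcripts were 4.46-fold more abundant than those of ANT1, and the genotypes overlapped. *Slc25a36* exceeded *Slc25a33* by 6.18-fold and *Slc25a39* exceeded *Slc25a40* by 6.55-fold, while *Slc25a37* was at 0.669 of *Slc25a28*, each as the mean over the 4 libraries and each with overlap between genotypes. *Slc25a37* was counted at 4174 bases and *Slc25a28* at 1535, but their longest transcripts have 5927 and 3724. Which of these 2 is the more abundant per kb therefore depends on the transcripts chosen. Of 10 pairs compared, 8 overlapped, and in the others both *Id2*Δ/Δ ratios were the higher. Among single genes tested, 19% were higher without overlap and 15.8% lower, so this count does not set the pairs apart. The ratio of *Slc25a42* to *Slc25a16* was -1.67 and -2.03 in *Id2+/+* and -1.58 and -1.29 in *Id2*Δ/Δ libraries. The ratio of *Slc25a22* to *Slc25a18* was 5.98 and 5.21 against 6.44 and 6.46, and rests on the 4 to 18 reads of *Slc25a18*. None of the ratios was tested.

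**Figure D4:**
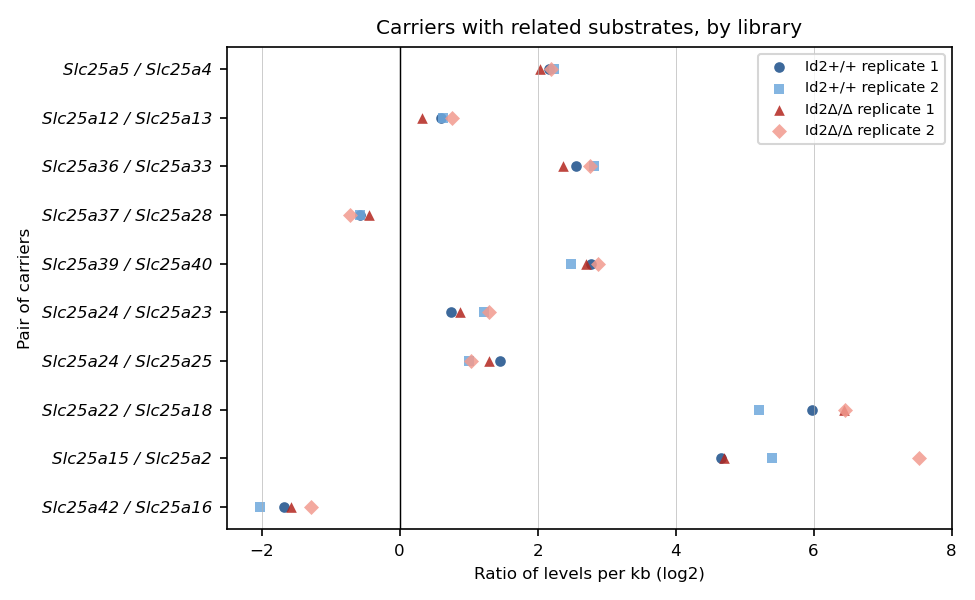
Log2 ratio of the levels per kb of 10 pairs of carriers with related substrates, by library, with blue symbols for *Id2+/+* and red symbols for *Id2*Δ/Δ HSCs. *Slc25a5* exceeded *Slc25a4* in every library by 2.04 to 2.23, and only *Slc25a22* / *Slc25a18* and *Slc25a42* / *Slc25a16* show separate genotypes.

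Other genes of mitochondrial transport gave no call either, with 0 genes at an unadjusted p under 0.05 in each of 5 lists. Of all genes tested 4.67% had such a p. For the counts below, 51.7% of all genes tested were higher, 19% were above without overlap and 15.8% were below. Of the genes for the import of carriers through TOM70 and TIM22, 8 of 11 were higher in *Id2*Δ/Δ HSCs, 5 without overlap, with a median of 0.19. *Timm8a1*, a small chaperone of the intermembrane space, had 101 and 144 against 217 and 199 reads (difference 0.53, standard error 0.28), and *Tomm70a*, the receptor for carrier precursors, was at 7.54 and 7.46 against 7.22 and 7.46 log2 CPM (difference -0.16). The 3 VDAC channels of the outer membrane had a median of 0.18, with *Vdac1* at 7.42 and 7.38 against 7.75 and 7.55 log2 CPM (difference 0.25, standard error 0.12, adjusted p = 0.910 in limma). The VDAC median was -0.03 without *Id2*Δ/Δ replicate 1 and 0.35 without *Id2*Δ/Δ replicate 2. That of the import list ran from 0.09 without *Id2*Δ/Δ replicate 1, and 0.10 without *Id2+/+* replicate 2, to 0.19. The pyruvate carrier and sideroflexins (5 of 7 higher, 2 without overlap, median 0.08) ranged from -0.17 for *Sfxn2* to 0.30 for *Sfxn4*. The calcium uniporter complex (4 of 6 higher, 1 above and 2 below without overlap, median 0.05) ranged from -0.08 for *Mcur1* to 0.41 for the pore subunit *Mcu*. Of the carrier family members under other names, the uncoupling protein *Ucp2* differed by 0.13, *Mtch1* by 0.06 and *Mtch2* by 0.02. The medians of these 3 lists were -0.05, -0.08 and -0.04 without *Id2*Δ/Δ replicate 1, and 0.28, 0.19 and 0.12 without *Id2*Δ/Δ replicate 2.

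Promoter sequences were read for the members because the study concerns HIF-1 signaling. Among members whose genotypes separated and that had a promoter entry, *Slc25a42* and the citrate carrier *Slc25a1* had the greatest differences and are shown. *Slc25a44* had no entry, and the promoter of *Slc25a16* (difference 0.24) holds 1 core of the motif below and is not printed. The sequences are RefSeq promoters on GRCm38.p6, from 250 bases before to 50 bases after the start, on the strand of the gene, 5′ to 3′. Capitals mark the core letters of the HIF binding motif, ACGTG or GCGTG, on either strand. The *Slc25a42* promoter, chr8:70212232-70212531 on the minus strand, holds 1 core.
Slc25a42: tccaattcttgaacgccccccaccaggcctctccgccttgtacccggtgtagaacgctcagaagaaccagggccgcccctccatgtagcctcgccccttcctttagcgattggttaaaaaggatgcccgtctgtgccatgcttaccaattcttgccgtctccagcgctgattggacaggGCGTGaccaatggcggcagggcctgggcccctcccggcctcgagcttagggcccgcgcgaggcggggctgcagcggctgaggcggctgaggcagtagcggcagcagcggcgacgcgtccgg
The *Slc25a1* promoter, chr16:17928170-17928469 on the minus strand, holds 8, of which a pair overlaps within CACGTG, which also matches the E-box CANNTG.
Slc25a1: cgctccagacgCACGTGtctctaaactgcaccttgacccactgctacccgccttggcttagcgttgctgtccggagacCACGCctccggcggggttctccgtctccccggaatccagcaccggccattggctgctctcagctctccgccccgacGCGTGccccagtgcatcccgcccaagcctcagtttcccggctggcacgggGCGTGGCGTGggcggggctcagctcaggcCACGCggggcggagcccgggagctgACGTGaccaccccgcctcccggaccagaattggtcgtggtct
Of the 43 members, 32 matched a promoter by symbol, with 41 promoters in all. The HIF core was present in 58.5% of these, beside 43.8% of all 32851 promoters of the same length. The E-box was present in 70.7% against 72.3%, the ETS motif CCGGAAG in 14.6% against 8.86%, and the NRF1 motif GCGCNTGCGC in 2.44% against 4.6%. A match describes the letters in this window and no binding was measured. Base composition was not matched between members and all promoters, and the printed windows hold 65.7% GC for *Slc25a42* and 69.3% for *Slc25a1*.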

How the data were processed

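The authors deposited log2 CPM values for 19354 genes in 4 libraries, and all 4 columns were used. Quantile normalization was read from the values, since the 4 sorted columns differ by under 0.1 in 88.4% of ranks. The submitters' processing notes list CASAVA 1.8.4, Trimmomatic 0.30, TopHat2 2.0.8, RSEM and STAR with builds mm9 and NCBIM37, without role or order, while 99.7% of the gene identifiers match GENCODE M21 (GRCm38), 82% with the same version, so gene coordinates are not given. Strand use and the counting of shared reads are not given in the sources used here.

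Below 32 CPM, the rank of a distinct value within its library was taken as its number of reads, and depth as the median of reads to CPM. Because more abundant genes have no recovered reads, no count model was run. The 15895 genes whose mean reached 1 CPM were tested on the deposited log2 values with limma 3.58.1 in R 4.3.3 (trend over intensity, a genotype term alone, two-sided p-values, Benjamini-Hochberg over all genes tested), after the fit was tested on simulated data with 200 changed genes. Levels per kb used the APPRIS principal transcript. A spline with 5 degrees of freedom on transcript length gave the length correction.

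Members and lists were chosen with earlier results of these data known. Named with values were the 2 most abundant tested members of each role group, any member with p under 0.05, the 5 with the greatest difference among members free of overlap in each direction, any member at or under 3 reads throughout, and the extremes of each other list. *Slc25a4*, *Slc25a20* and further members were added after their values were seen. Alternatives varied the pseudocount, filter, scaling, trend, replicate term, length correction and libraries. Protein sequences were not used here. One member enters the counts and medians but is not reported here.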

Additional observations from a re-analysis of the deposited data

How the results depend on the processing

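No member was called under any of 14 alternatives, with adjusted p-values from 0.266 to 1.0 in limma. The median difference of the members ran from 0.05 to 0.12 with a library left out and was 0.12 in the libraries of replicate number 1 alone and 0.07 in those of number 2, a split chosen after seeing the data. The count of members above without overlap ran from 19 to 24 and that below from 3 to 8 with a library left out, where 31.8% to 40.1% and 27.5% to 36.9% of all genes tested did so, because fewer libraries are compared. Without a filter, 1 member lay below (*Slc25a18*). With the replicate block, 1 gene was called over all genes, *C130089K02Rik* (difference -1.61, adjusted p = 0.0189), which was not called with block and length correction together. The labels do not say whether a replicate number marks a shared experiment. Deviations of same-numbered libraries correlated at 0.0592 across genes and at 0.139 across genes above 32 CPM. The summed neutrophil markers were higher in replicate 1 than in replicate 2 of both genotypes (286 and 172 CPM in *Id2+/+*, 264 and 143 CPM in *Id2*Δ/Δ). The reason was not tested. The length correction, alone or with the block, reversed *Slc25a12* to 0.08, *Slc25a23* to 0.0034 and *Slc25a36* to 0.03, which are 6 of 383 member values, and the cause was not tested. At an unadjusted p under 0.05 there was 1 member without the trend (*Slc25a42*), 2 without *Id2*Δ/Δ replicate 1 (*Slc25a39*, *Slc25a42*) and 4 without *Id2*Δ/Δ replicate 2 (*Slc25a1*, *Slc25a4*, *Slc25a22*, *Slc25a51*).

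With a library left out, 31 of 156 member values reversed, in 21 members. Their differences ran as follows: *Slc25a3* -0.03 to 0.21, *Slc25a10* -0.07 to 0.31, *Slc25a12* -0.15 to 0.12, *Slc25a13* -0.29 to 0.41, *Slc25a15* -0.14 to 0.29, *Slc25a17* -0.24 to 0.11, *Slc25a22* -0.76 to 0.04, *Slc25a23* -0.31 to 0.23, *Slc25a25* -0.06 to 0.32, *Slc25a26* -0.30 to 0.04, *Slc25a27* -0.28 to 0.04, *Slc25a29* -1.02 to 0.38, *Slc25a30* -0.09 to 0.45, *Slc25a33* -0.01 to 0.16, *Slc25a35* -0.09 to 0.32, *Slc25a36* -0.20 to 0.11, *Slc25a38* -0.06 to 0.38, *Slc25a40* -0.08 to 0.17, *Slc25a43* -0.28 to 0.84, *Slc25a46* -0.12 to 0.27 and *Slc25a47* -0.58 to 0.46.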
